A study of Rattus norvegicus with 18 samples.

Results

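The 9 genes described here encode the signalling chains of the T cell receptor (TCR), the CD4 co-receptor and the first kinases and adaptors below them, in rat CD4+ T cells from the spinal cord parenchyma and the spleen. They were chosen by name and not by a filter on measured values, but with earlier results of these data known. The genes are *Cd3d*, *Cd3e*, *Cd3g*, *Cd247*, *Cd4*, *Lck*, *Zap70*, *Lat* and *Lcp2*, that is 9 of the 32882 genes listed in each of 3 tables. All 9 passed the minimum mean level for a test in all 3 tables. The cells were TMBP cells, a line of T cells reactive to myelin basic protein (MBP) that was grown from an immunized Lewis rat and restimulated with MBP before intravenous transfer into Lewis rats, where such cells cause experimental autoimmune encephalomyelitis, a model of multiple sclerosis. Cas9 with a guide RNA against *Ets1*, a transcription factor of the ETS family, or *Grk2*, a kinase that shuts off G-protein-coupled receptors, was electroporated into cells that carried EGFP. Control cells carried BFP and a non-targeting (NT) guide. They are edited pools, not stated to be clones, and since every KO group had one fluorescent protein and every control group the other, the edit and the reporter cannot be told apart. KO and control cells were sorted by colour on day 3 after transfer, and 3′ bulk mRNA-seq gave 3 libraries for each of 6 groups. *Ets1*-KO cells were taken from the parenchyma and the spleen and *Grk2*-KO cells from the spleen, each of these 3 KO groups with a control group of its own. The paper states that the *Ets1*-KO and control cells of the parenchyma were taken from rats that had received both. The labels do not state the age of the animals or which libraries share a rat.

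The TCR binds peptide on MHC molecules but has no signalling tail of its own, and signals through the CD3 chains δ, ε and γ and through the ζ chain, which is encoded by *Cd247*. CD4 binds MHC class II and brings the kinase LCK to the receptor, LCK phosphorylates the tails of the CD3 and ζ chains, and ZAP-70 docks there and phosphorylates the adaptors LAT and SLP-76 (the product of *Lcp2*), on which the downstream enzymes assemble. In autoreactive T cells this cascade is triggered again at the site of disease by cells that present myelin antigen.

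On Rnor_6.0, the build of the files, *Cd3g*, *Cd3d* and *Cd3e* lay side by side on chromosome 8 within 33847 bases, *Cd3g* from 49274960 to 49280901, *Cd3d* from 49282460 to 49287110 and *Cd3e* from 49297608 to 49308806. *Cd3d* (ENSRNOG00000015994) is on the plus strand and both of its neighbours on the minus strand, with 1558 bases between *Cd3g* and *Cd3d* and 10497 between *Cd3d* and *Cd3e*. The other 6 genes lay apart from each other, *Cd247* on chromosome 13 (83996080 to 84071400), *Cd4* on chromosome 4 (157383052 to 157408176), *Lck* on chromosome 5 (147750973 to 147761983), *Zap70* on chromosome 9 (43331155 to 43353113), *Lat* on chromosome 1 (197765644 to 197770669) and *Lcp2* on chromosome 10 (18996523 to 19043286). No other annotated gene overlapped any of the 9, so that their reads were not shared with an antisense partner in this annotation.

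ETS factors, the family of the edited ETS1, bind DNA around the letters GGAA, and the upstream sequences of the members whose levels differed most between the tissues are therefore shown. They are the 250 bases before the transcript start, on the strand of the gene, from RefSeq on GRCr8, which is not the build of the files. Capitals mark GGAA and its reverse complement TTCC. The windows are chr8:54185269-54185518 for *Cd3d* (plus strand), chr9:46485355-46485604 for *Zap70* (plus strand), chr1:190372137-190372386 for *Lat* (minus strand) and chr5:147201268-147201517 and chr5:147183651-147183900 for 2 starts of *Lck* (minus strand).
Cd3d: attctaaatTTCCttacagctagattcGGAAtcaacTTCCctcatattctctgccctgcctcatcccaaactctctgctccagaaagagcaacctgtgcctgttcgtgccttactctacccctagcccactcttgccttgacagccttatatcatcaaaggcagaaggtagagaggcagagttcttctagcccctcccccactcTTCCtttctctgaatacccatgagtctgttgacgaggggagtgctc
Zap70: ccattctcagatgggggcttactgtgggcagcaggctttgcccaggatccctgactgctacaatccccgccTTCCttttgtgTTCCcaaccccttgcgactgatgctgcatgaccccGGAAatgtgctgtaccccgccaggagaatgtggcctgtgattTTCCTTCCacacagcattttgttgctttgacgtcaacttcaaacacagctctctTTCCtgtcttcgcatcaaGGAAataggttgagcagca
Lat: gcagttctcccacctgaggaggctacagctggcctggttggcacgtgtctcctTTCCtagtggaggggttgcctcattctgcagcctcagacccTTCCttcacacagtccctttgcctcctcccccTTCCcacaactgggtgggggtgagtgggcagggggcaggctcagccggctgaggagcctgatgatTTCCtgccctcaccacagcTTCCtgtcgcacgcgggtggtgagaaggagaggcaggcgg
Lck, start 1: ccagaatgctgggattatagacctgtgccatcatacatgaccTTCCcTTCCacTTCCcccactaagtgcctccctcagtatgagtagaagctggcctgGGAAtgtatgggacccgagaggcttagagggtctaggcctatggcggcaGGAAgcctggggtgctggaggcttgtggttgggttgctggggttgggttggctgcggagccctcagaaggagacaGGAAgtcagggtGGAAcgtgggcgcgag
Lck, start 2: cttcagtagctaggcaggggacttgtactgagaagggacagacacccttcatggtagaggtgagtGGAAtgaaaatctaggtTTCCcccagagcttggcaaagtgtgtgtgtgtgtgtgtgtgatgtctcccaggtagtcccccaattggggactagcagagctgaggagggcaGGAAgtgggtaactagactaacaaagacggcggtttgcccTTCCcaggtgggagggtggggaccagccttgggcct
GGAA was found on either strand in all 8 windows that RefSeq gives for 7 of the members. It was also found in 93.2% of the 33469 rat promoter windows of that length, so that these short letters do not set the members apart from most genes. *Cd3d* had 4 matches, *Zap70* 7, *Lat* 5 and the windows of *Lck* 7 and 4, where the median promoter had 3. Of the windows not shown, *Cd3e* had 5 matches, *Cd247* 2 and *Cd3g* 1, the last 2 genes being below that median. The longer GGAAGT, which contains GGAA, stood in 5 of the 8 windows and in 19.2% of all windows. It was found in the windows of *Cd3d* and of both *Lck* starts and not in those of *Zap70* and *Lat*. A match is a run of letters and not a bound site. The table used held no window for *Cd4* and *Lcp2*.

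Each library had between 898092 and 2248258 reads assigned to genes, and in the spleen the *Ets1*-KO libraries (1909862 to 2248258) were deeper than their controls (898092 to 1213485). *Grk2* reads were lower in all 3 *Grk2*-KO libraries than in all 3 controls (log2 fold change −1.22, SE 0.13, limma adjusted p = 1.76e-12). *Ets1* reads were not lower in the libraries labelled *Ets1*-KO (log2 fold change 0.09 in the parenchyma and −0.06 in the spleen), but reads from 3′ ends do not cover an edited site elsewhere and therefore do not check these labels. The paper states that its single KO lines were checked for editing efficiency before use. Its supplement also holds a western blot of ETS1 in control and *Ets1*-KO cells. Replicate 3 of the spleen *Ets1*-KO cells stood apart from the other libraries of its group, with 21.0% of its reads on mitochondrial genes where the other libraries of that group had between 14.1% and 14.9%, and results for that table are also given without replicate 3. Marker genes of B cells summed to at most 9.89 reads per 1000000 reads on genes (RPM) in any library, with *Ms4a1*, *Cd79a*, *Cd79b*, *Pax5* and *Blk* each at 0 in all libraries of most groups. *Cd8b* and *Ncr1*, markers of CD8 T cells and natural killer cells, were at 0 throughout, while *Klrd1*, a receptor of natural killer cells and some T cells, had up to 136 RPM in the *Grk2* table and up to 35.1 elsewhere. *Cd8a*, which encodes a chain of the CD8 co-receptor, had 2.67, 0 and 0.696 RPM in the parenchyma controls, 7.20, 4.96 and 4.01 RPM in the *Ets1*-KO libraries there and at most 2.23 RPM in the spleen. Markers of neural cells summed to at most 11.1 RPM, in the parenchyma, with *Aqp4* at 0 in every library. The defining markers of the labelled cells, *Cd3d*, *Cd3e*, *Cd3g* and *Cd4*, had reads in all 18 libraries. The genes of the αβ receptor chains themselves carry no name in these tables and were not analysed here.

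After editing of *Ets1* in the parenchyma, none of the 9 genes was called, where 5.23% of the 7002 genes tested were called. Called means an adjusted p under 0.05 in limma on log2(normalized count + 1), with Benjamini-Hochberg adjustment over all genes tested and the replicate number as a block. The normalized count is the authors' read count divided by a size factor of the library, and fold changes on this scale understate the change of genes with few reads. An unadjusted p under 0.05 was found for 2 of the 9, *Cd4* and *Lat*, and for 16.9% of all genes. The log2 fold changes of the 9 genes had a median of −0.02, beside −0.03 over all genes tested. No member was called by edgeR's quasi-likelihood test, nor by DESeq2 among the members it gave an adjusted p, which leaves out *Cd4*. The count over all genes, 366 in this fit, was 90 with DESeq2 and 3 without the variance trend. In this fit limma gave each gene the variance of the trend at its level and no part of its own spread.

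The 4 signalling chains of the receptor moved little. *Cd3d*, encoding the δ chain, had 1452, 1352 and 1320 normalized counts in the control libraries and 1467, 1454 and 1580 in the *Ets1*-KO libraries. All 3 KO libraries were above all 3 controls, by a small margin (log2 fold change 0.13, standard error 0.07, 95% interval −0.02 to 0.27, limma adjusted p = 0.372). *Cd3e*, the ε chain that the receptor needs in order to assemble, had between 415 and 447 normalized counts in KO and between 428 and 436 in control libraries (log2 fold change −0.02, standard error 0.09, limma adjusted p = 0.959). *Cd3g*, the γ chain, had between 278 and 332 in KO and between 277 and 286 in control libraries, and *Cd247*, the ζ chain, had between 569 and 643 in KO and between 503 and 592 in control libraries, so that the groups overlapped for both.

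*Cd4*, the co-receptor, had the largest difference of the 9 and the fewest reads. Its normalized counts were 43.9, 35.7 and 49.1 in the control libraries and 33.4, 28.3 and 22.7 in the *Ets1*-KO libraries, from 38 to 50 and from 20 to 33 reads. All KO libraries were below all controls. The log2 fold change was −0.60 (standard error 0.23, 95% interval −1.06 to −0.14), and the gene was not called (limma adjusted p = 0.121, between 0.121 and 0.624 over its alternatives). CD4 is also made by some rat macrophages and microglia, and the 10 myeloid markers listed summed to between 16.8 and 35.5 RPM in the control libraries and between 26.9 and 43.9 in the KO libraries of the parenchyma, most of it *Lyz2*. *Csf1r*, *Itgam* and *Cd68* were each at or under 2.16 RPM there. The ranges of the myeloid sum overlapped between KO and control libraries. *Cd8a*, which was under the minimum mean level for a test, was higher in all 3 of these KO libraries (4.01 to 7.20 RPM) than in all 3 controls (0 to 2.67 RPM). In normalized counts 7.87% of the genes tested had all KO libraries above all controls. The part of myeloid cells or of cells with *Cd8a* in the *Cd4* values was not tested. In these bulk samples fewer cells of a type and less RNA per cell cannot be told apart.

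*Lat*, the membrane adaptor, had 431, 465 and 442 normalized counts in the control libraries and 373, 417 and 358 in the *Ets1*-KO libraries. Here too all KO libraries were below all controls, with a log2 fold change of −0.22 (standard error 0.09, 95% interval −0.40 to −0.04) that was not called (limma adjusted p = 0.150, between 0.104 and 0.739 over the 14 alternatives). *Lcp2*, the partner of LAT, had between 779 and 818 normalized counts in KO and between 776 and 973 in control libraries. Of the kinases, *Lck* differed by −0.07 and *Zap70* by 0.09 on the log2 scale (standard errors 0.09 and 0.08), and for both the groups overlapped in normalized counts. KO and control ranges were separate for 3 of the 9 genes, higher for *Cd3d* and lower for *Cd4* and *Lat*, beside 18.4% of all genes tested (7.87% higher and 10.5% lower). This depended on the scale for *Cd3d* and *Zap70*, because in RPM *Cd3d* overlapped (1019 to 1118 in KO and 930.02 to 1039 in control libraries) and *Zap70* was just separate, at 504.5 or more in KO and 503.8 or less in control libraries. For a single gene the exact permutation test of 3 against 3 libraries cannot go below p = 0.1, the value all 3 reached. Apart from *Cd4*, the 95% intervals of the members lay between a fold of 0.756 and one of 1.26.

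In the spleen, *Ets1* editing again left no member called, where 2.22% of the 6979 genes tested were called (155 genes, or 3 without replicate 1). *Cd3d* alone had an unadjusted p under 0.05, which 14.1% of all genes had. It had 652, 727 and 705 normalized counts in the control libraries and 884, 791 and 774 in the *Ets1*-KO libraries, all KO libraries being above all controls (log2 fold change 0.23, standard error 0.11, 95% interval 0.00 to 0.46, limma adjusted p = 0.350). It was the only member whose groups did not overlap in this table, beside 16.9% of all genes tested (8.04% with the KO libraries higher), while in RPM its groups overlapped (551.5 to 676 in KO and 491 to 562.8 in control libraries). Without replicate 3 its log2 fold change was 0.28 (limma adjusted p = 0.264), and no member was called without that replicate. *Cd247* was higher in all 3 pairs of equal replicate number, by 0.17 on the log2 scale (standard error 0.11), and *Lck* was lower in all 3 (log2 fold change −0.15, standard error 0.11), both with groups that overlapped. *Cd4* had between 6.85 and 16.9 normalized counts in KO and between 6.45 and 21.9 in control libraries, from 6 to 27 reads, and its 95% interval, from −1.13 to 0.57, covers folds from 0.458 to 1.49, so that a change within these bounds was not detectable at this depth. Apart from *Cd4*, the 95% intervals of the members lay between folds of 0.770 and 1.38.

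After editing of *Grk2* in the spleen, 0 of the 9 members and 1.56% of the 6985 genes tested were called. *Lck* and *Zap70* were the 2 members with an unadjusted p under 0.05, beside 10.4% of all genes. *Lck*, the kinase that starts the cascade, had 782, 775 and 678 normalized counts in the control libraries and 796, 827 and 857 in the *Grk2*-KO libraries (log2 fold change 0.15, standard error 0.07, 95% interval 0.01 to 0.30, limma adjusted p = 0.440). *Zap70* had 294, 331 and 282 normalized counts in the control libraries and 339, 344 and 341 in the *Grk2*-KO libraries (log2 fold change 0.18, standard error 0.09, 95% interval 0.00 to 0.35, limma adjusted p = 0.470). For both kinases all KO libraries lay above all controls, and they were the 2 members whose groups did not overlap, beside 12.2% of all genes tested (7.59% with the KO libraries higher). *Cd3d* and *Lat* had log2 fold changes of −0.00 and −0.02 (standard error 0.07 each). The 95% intervals of the members other than *Cd4* lay between folds of 0.895 and 1.27.

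**Figure D1:**
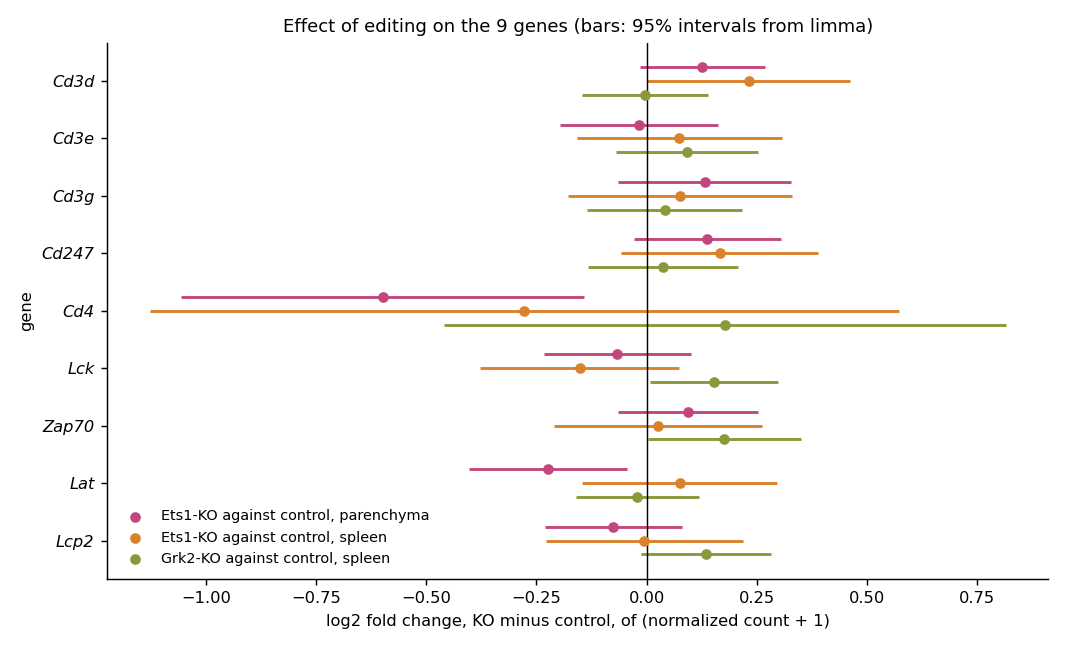
The log2 fold change of KO against control cells (x axis) is plotted for the 9 genes (y axis) in each of 3 comparisons, with 95% intervals from limma as bars. Most intervals cross 0, those of *Cd4* are the widest, and none of the 27 values passed adjustment over all genes.

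The effects of the edits were also compared with each other through the log2 ratio of each KO library to the control library of the same number. The effect of *Ets1* editing did not differ between parenchyma and spleen for any member past adjustment, where 2.1% of the 6520 genes that could be compared differed. *Lat* came nearest, at −0.30 (standard error 0.13, 95% interval −0.57 to −0.03, unadjusted p = 0.0313 and adjusted p = 0.294, limma). It was lower in all 3 pairs of the parenchyma and higher in all 3 pairs of the spleen, by between 0.02 and 0.12 on the log2 scale in the latter. Between the *Ets1* and *Grk2* edits in the spleen no member differed past adjustment, where 1.94% of the 6490 genes compared did. *Lck* had the smallest p, with a difference of −0.30 (standard error 0.13, limma adjusted p = 0.293), from a value below 0 after *Ets1* editing and above 0 after *Grk2* editing.

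The control cells of both tissues were set side by side in RPM, because the authors scaled each table separately. The tissue was also the table, so that the difference of tissue and that of table cannot be told apart, and the levels were not tested. The 6 spleen controls came from 2 tables, which shows how far tables of one tissue differ. Their ranges did not overlap for 60.1% of 6207 genes, and for 5 members, *Cd3d*, *Cd247*, *Lck*, *Lat* and *Lcp2*, the widest being *Cd247* with a fold of 1.51. The 3 parenchyma controls lay outside the range of all 6 spleen controls for 5 of the 9 members, 3 higher and 2 lower, beside 24% of all genes (9.54% higher and 14.5% lower).

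*Zap70* and *Cd3d* were higher in the parenchyma. *Zap70* had 499, 504 and 453 RPM in the parenchyma controls, and 260, 292 and 236 RPM in the spleen controls to *Ets1*-KO and 230, 256 and 212 RPM in those to *Grk2*-KO. Its mean was 1.96-fold that of the 6 spleen controls, and 1.85-fold and 2.08-fold those of the 2 spleen tables. *Cd3d* had 1039, 930 and 935 RPM in the parenchyma controls and between 491 and 650 RPM in the spleen controls, 1.69-fold higher on average, where *Cd3e* (300.1 to 306 against 264 to 344 RPM) and *Cd3g* (197 to 199 against 186 to 248 RPM), its neighbours in the genome, had overlapping ranges. *Cd4* had 31.4, 24.6 and 34.8 RPM in the parenchyma and between 4.995 and 15.6 RPM in the spleen, a fold of 2.82. Beside it, myeloid markers summed to between 16.8 and 35.5 RPM in the parenchyma controls and between 0.761 and 7.79 RPM in the spleen controls, and their part in the *Cd4* level was not tested.

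*Lat* and *Lck* were lower in the parenchyma. *Lat* had 308, 320 and 313 RPM in the parenchyma controls, and 594, 675 and 532 RPM in the spleen controls to *Ets1*-KO and 726, 738 and 692 RPM in those to *Grk2*-KO. The spleen mean was 2.10-fold that of the parenchyma. *Lck* had between 393 and 425 RPM in the parenchyma and between 510 and 685 RPM in the spleen, 0.670-fold. *Cd247* and *Lcp2* overlapped between the tissues, with *Cd247* at 356 to 407 RPM in the parenchyma and 263 to 457 RPM in the spleen. Summed over the 9 genes the level was between 3345 and 3948 RPM in every library, with ranges that overlapped between the tissues. Reads on mitochondrial genes, which count in the total, were 25.4% to 27.4% in the parenchyma controls and 17.3% to 22.6% in the spleen controls. Without these genes the same 5 members were higher or lower in the parenchyma.

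**Figure D2:**
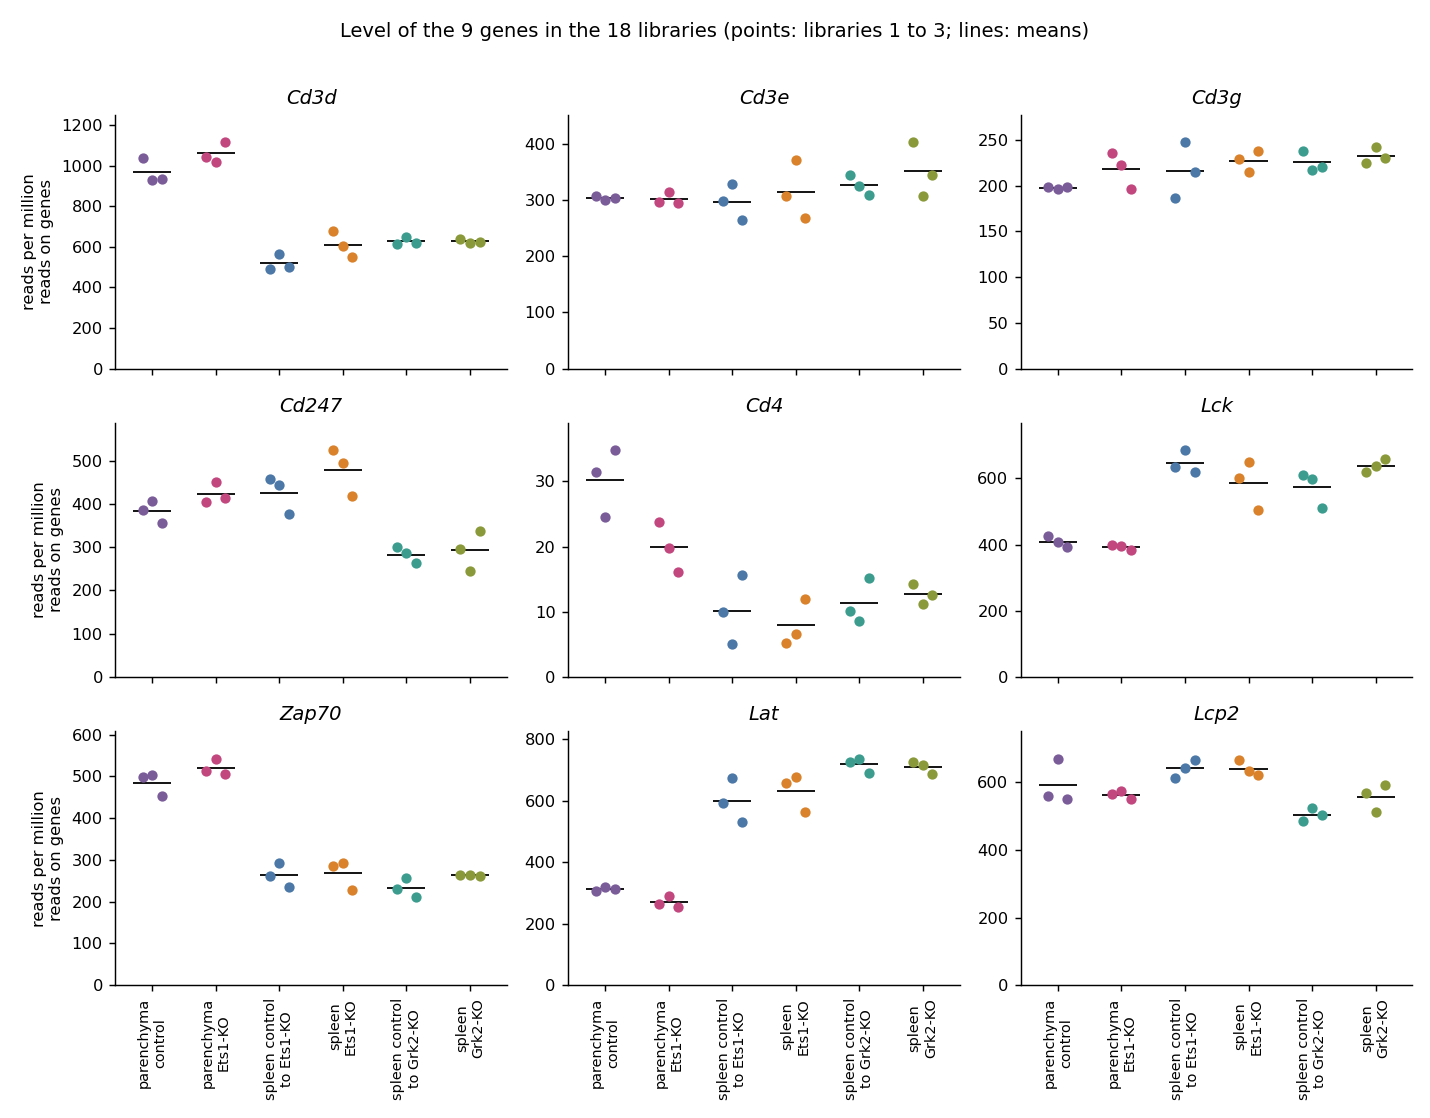
Each panel shows 1 of the 9 genes in RPM (y axis, from 0) for the 3 libraries of each of 6 groups (x axis), with the group mean as a line. *Cd3d* and *Zap70* sit higher and *Lat* and *Lck* lower in all 6 parenchyma libraries than in all 12 spleen libraries.

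The KO cells had the same order of tissues as the controls for these 5 genes. Ordered by mean RPM over the 6 groups, *Zap70* was highest in the *Ets1*-KO cells of the parenchyma, followed without overlap by their controls, and the 4 spleen groups came after them with ranges that overlapped from one to the following. *Lat* was highest in both spleen groups of the *Grk2* table, which overlapped each other, then in both spleen groups of the *Ets1* table, which also did, and lowest in the parenchyma controls and *Ets1*-KO cells, which did not. *Lck* was highest in the spleen controls to *Ets1*-KO, the other spleen groups overlapped it in turn, and the parenchyma groups came last and overlapped each other. *Cd3d* and *Cd4* were highest in both parenchyma groups, which overlapped for *Cd3d* and not for *Cd4*, and their 4 spleen groups overlapped from one to the following. For *Cd3e*, *Cd3g* and *Lcp2* each group overlapped the next in the order, and *Cd247* had a single gap, below which came both spleen groups of the *Grk2* table.

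Ratios of reads within a library do not depend on scaling, and these ratios were chosen after the values had been seen. The ratio of *Cd3d* to *Cd3e* was between 3.09 and 3.81 in the 6 parenchyma libraries and between 1.58 and 2.21 in the 12 spleen libraries. That of *Zap70* to *Lck*, the 2 kinases, was between 1.15 and 1.38 in the parenchyma and between 0.376 and 0.475 in the spleen. *Lat* to *Lcp2*, the 2 adaptors, had a ratio of 0.460 to 0.570 in the parenchyma and of 0.799 to 1.49 in the spleen. The ratios of *Cd3g* to *Cd3e* and of *Cd247* to *Cd3e* overlapped between the tissues. Within the parenchyma the ratio of *Zap70* to *Lat* was 1.62, 1.57 and 1.45 in the control libraries and 1.93, 1.86 and 1.99 in the *Ets1*-KO libraries, with no overlap. In the spleen the same ratio was between 0.433 and 0.444 in the controls to *Ets1*-KO and between 0.405 and 0.433 in the *Ets1*-KO libraries. It was between 0.307 and 0.347 in the controls to *Grk2*-KO and between 0.362 and 0.381 in the *Grk2*-KO libraries, which did not overlap either. Ratios compare a gene between libraries and not the amounts of 2 transcripts, since priming at 3′ ends can differ between genes.

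**Figure D3:**
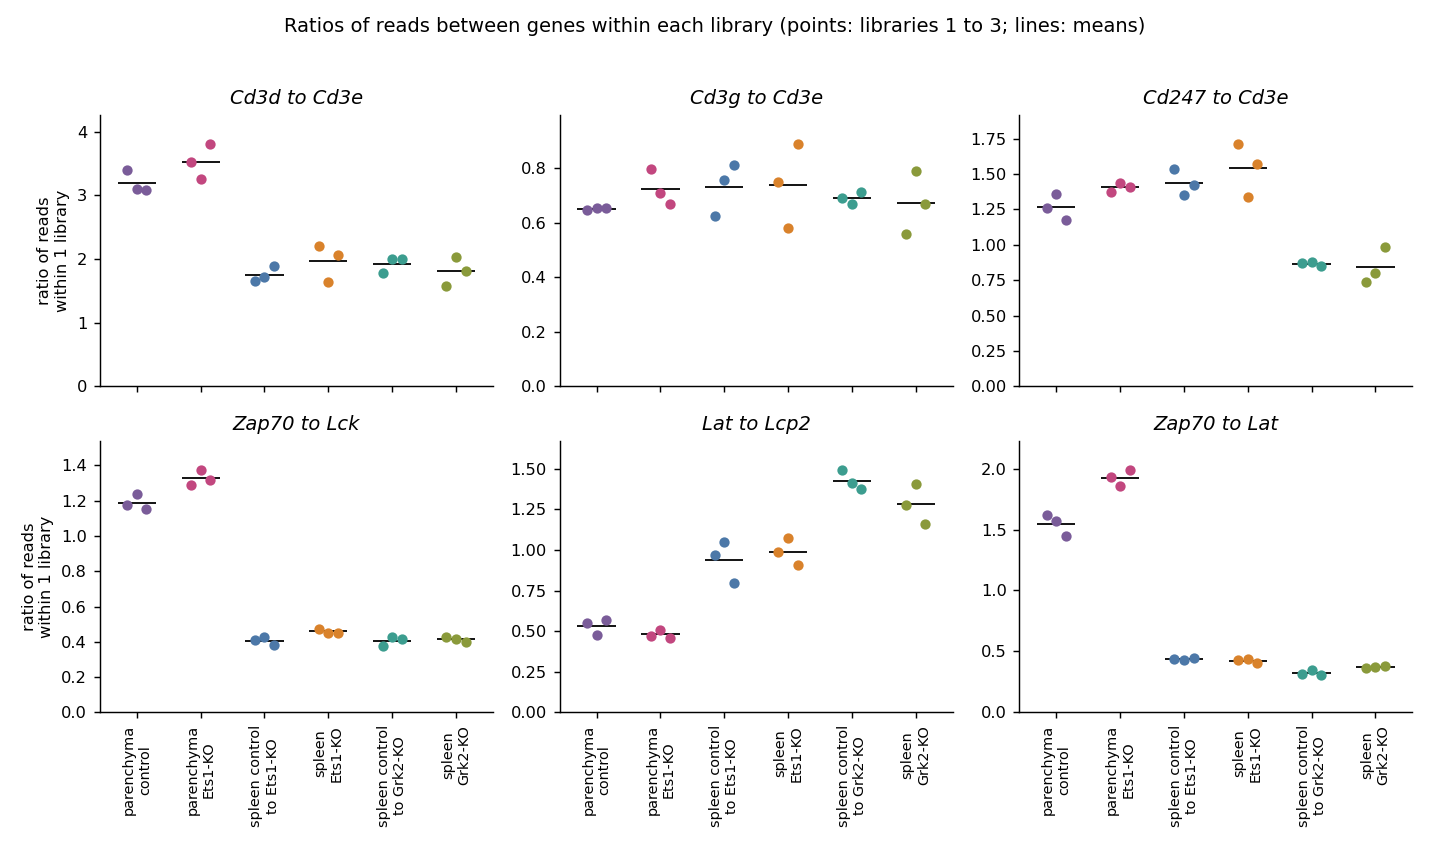
Each panel shows the ratio of reads of 1 gene to another within a library (y axis, from 0) for the 3 libraries of each of 6 groups (x axis), with the group mean as a line. *Cd3d* to *Cd3e*, *Zap70* to *Lck* and *Zap70* to *Lat* are higher and *Lat* to *Lcp2* is lower in all 6 parenchyma libraries, while *Cd3g* to *Cd3e* overlaps.

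The other genes of the pathway were taken from 4 lists with 45 genes in all, the regulators of LCK activity, the effectors downstream, the negative regulators and the other surface receptors. In the parenchyma 8 of the 37 tested were called after *Ets1* editing, 2 higher and 6 lower, or 21.6% beside 5.23% of all genes (2.27% higher and 2.96% lower), with a median log2 fold change of −0.06 beside −0.03. The lists were chosen with earlier results of these data known, so that their share of calls is a description and no test of the pathway. Of the 15 effectors tested 1 was called higher and 3 lower, of the 9 negative regulators 3 lower, of the 6 surface receptors 1 higher, and of the 7 regulators of LCK, which include the kinases *Fyn* and *Csk* and the phosphatase *Ptprc*, none. These calls rest on the variance trend, and without it 0 of the 37 were called and 6 had an unadjusted p under 0.05. The counts also fell to 4 without replicate 1, 3 without replicate 2 and 3 with DESeq2, which gave 6 of these genes no adjusted p.

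The effectors that fell were *Was*, *Fyb1* and *Skap1*. *Was*, the Wiskott-Aldrich protein that drives actin growth below the receptor, had 615, 718 and 633 normalized counts in the control and 434, 435 and 527 in the *Ets1*-KO libraries (log2 fold change −0.50, standard error 0.09, limma adjusted p = 1.07e-06), and was called in 13 of 14 alternatives. *Fyb1* and *Skap1*, adaptors that link SLP-76 to integrins, fell by 0.30 and 0.35 on the log2 scale (standard errors 0.07 and 0.09, limma adjusted p = 0.00152 and 0.00375), and were called in 12 and 11 of 14 alternatives. *Txk*, a TEC family kinase, was the effector that rose, from 31.7 ± 1.92 to 53.8 ± 2.57 normalized counts (SD, n = 3, log2 fold change 0.75, standard error 0.21, limma adjusted p = 0.0142), and was called in 8 of 12 alternatives but in none that left out a replicate. The negative regulators that fell were *Dok2*, an adaptor that recruits RasGAP (log2 fold change −0.56, limma adjusted p = 0.000975), *Dgka*, which removes diacylglycerol (−0.41, 0.00585), and *Sit1*, a membrane adaptor that binds the phosphatase SHP2 (−0.35, 0.00512), called in 11, 9 and 11 of 14 alternatives respectively. Each of these 6 genes was lower in all 3 KO libraries than in all controls. *Icos*, a costimulatory receptor, had 5328 ± 573 normalized counts in its controls and 6099 ± 489 after *Ets1* editing (SD, n = 3, log2 fold change 0.20, limma adjusted p = 0.0421) and was not called in 5 of its 14 alternatives.

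In the spleen 0 of 36 genes of these lists were called after *Ets1* editing by limma, edgeR or DESeq2, and 7 had an unadjusted p under 0.05 in limma. *Skap1* had 470, 473 and 483 normalized counts in its controls and 599, 636 and 603 after *Ets1* editing ( log2 fold change 0.36, limma adjusted p = 0.0813). Without replicate 3 *Prkcq* was called (log2 fold change 0.49, limma adjusted p = 0.0316). The effect of *Ets1* editing differed between parenchyma and spleen for 4 of the 36, *Skap1* by −0.71, *Was* by −0.69, *Sit1* by −0.54 and *Fyb1* by −0.53 on the log2 scale (standard errors 0.14, 0.14, 0.14 and 0.13, limma adjusted p = 0.00226, 0.00421, 0.0313 and 0.0232), all lower in the parenchyma, as 1.43% of all genes compared were. This number was 2 with no replicate block, and 0 without replicate 1, 1 without replicate 2 and 0 without the variance trend. After *Grk2* editing 1 of 37 was called, *Prkcq*, the protein kinase C θ of the TCR pathway, and 0.63% of all genes were called lower. It had 158, 182 and 223 normalized counts in the control and 122, 142 and 162 in the *Grk2*-KO libraries, groups that overlap (log2 fold change −0.39, standard error 0.11, limma adjusted p = 0.0330), and it was not called in 7 of 14 alternatives, among them no replicate block and each replicate left out.

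**Figure D4:**
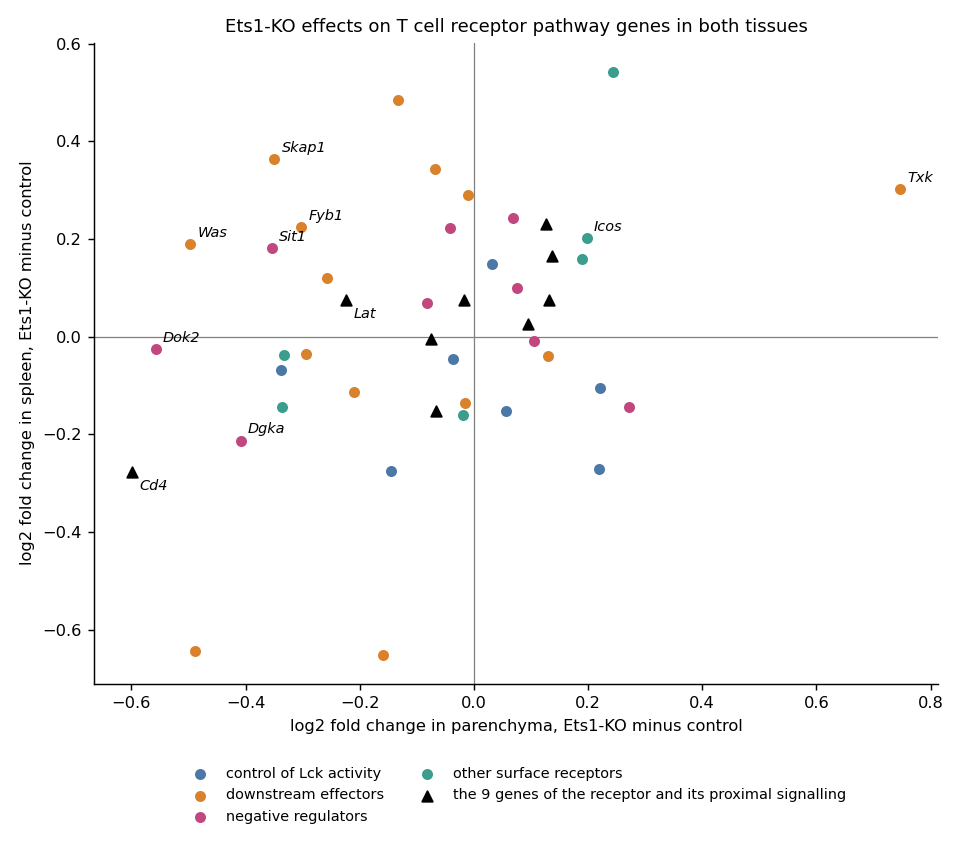
The log2 fold change after *Ets1* editing in the parenchyma (x axis) is plotted against that in the spleen (y axis), each dot being 1 gene of the 4 pathway lists and each triangle 1 of the 9 receptor and proximal signalling genes. Named dots are the 8 genes called in the parenchyma, and *Was*, *Fyb1*, *Skap1* and *Sit1* lie left of 0 in the parenchyma and above 0 in the spleen.

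The genes most alike to the members in their level over the 18 libraries were looked for among 6654 genes with a mean of at least 10 RPM, as Pearson r. These are descriptions over libraries that share tissue, tables and depth. *Sit1* was the most alike to *Lat* (r = 0.99), with 310 to 352 RPM in the parenchyma controls, 249 to 262 in the *Ets1*-KO cells there and 561 to 990 in the spleen. *Zap70* was most alike to *Zfp219* (r = 0.98), *Cd3d* to *Chchd10* (0.97), *Lck* to *Melk* (0.96), a kinase of dividing cells, *Cd247* to *Ptprcap* (0.95), a protein bound to CD45, *Cd4* to *RGD1307929* (0.90), *Lcp2* to *Lysmd3* (0.87) and *Cd3g* to *Tbcc* (0.78). The mean profile of the 9 genes was most like *Amdhd2* (r = 0.83). Among the members themselves *Cd3d* and *Zap70* went together (r = 0.93), as did *Lck* and *Lat* (0.93), while *Zap70* and *Lat* went opposite ways (−0.93). For each of these genes the parenchyma libraries stood apart from the spleen libraries, so that the r values include that split, which is also one of tables. *Cd3e* and *Cd3g* had an r of at most 0.47 with any other member, above 0 or below it.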

How the data were processed

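Bulk 3′ mRNA-seq of 18 rat TMBP libraries, 3 per group, was analysed with groups taken from the sample labels. The authors aligned reads without trimming to Rnor_6.0 with STAR 2.7.2b, counted them per gene with HTSeq 1.0.0 and scaled the counts with size factors from DESeq2. The deposited values are these normalized counts (signal values), in 3 tables scaled separately. All positive values (100%) were whole multiples of 1 step per library, within a tolerance of 0.01, which gave the reads. Library depth was 898092 to 2248258 reads assigned to genes. Tables of the authors' comparisons, which hold fold changes and p-values, and 8 columns of human values were not used.

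A gene needed a mean of 10 normalized counts or more. After log2(normalized count + 1), limma 3.58.1 was used (lmFit, eBayes with a variance trend, R 4.3.3) with replicate number as a block, two-sided. Effects were compared as log2 ratios of pairs. The scripts were tested on simulated data with 200 changed genes. Alternatives were no block, pseudocounts of 0.1 and 5, no filter, a minimum of 50, quantile and upper quartile scaling, each replicate left out, no variance trend, edgeR 4.0.16, DESeq2 1.42.0 and equal depth, and, for tissue levels, leaving out mitochondrial genes and the normalized counts. P-values rest on the spread between these libraries, which may be partly technical and which limma pools over genes of similar level. In the parenchyma the weight of that pool (prior degrees of freedom) was infinite. Standard errors, intervals and p-values there thus do not measure the spread of the single gene. The weight was 141.3 after *Grk2* editing and 21.97 after *Ets1* editing in the spleen. Unnamed rows (388) matched no member.

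The named genes are the 9 members, the edited genes, called genes of the pathway lists, the neighbours of the CD3 genes and the genes of most similar level, some of which are not reported here. The members and lists, markers of B cells, myeloid cells, CD8 or natural killer cells and neural cells included, were chosen with earlier results of these data known.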

Additional observations from a re-analysis of the deposited data

Results flagged for a closer look

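Differences between 2 effects that passed adjustment (limma on the log2 ratios of pairs) were singled out among the pathway genes. The effect of *Ets1* editing was lower in the parenchyma than in the spleen for *Skap1* (difference −0.71, 95% interval −0.99 to −0.44), *Was* (−0.69, −0.97 to −0.40), *Sit1* (−0.54, −0.82 to −0.25) and *Fyb1* (−0.53, −0.79 to −0.26), in log2 units. The parenchyma values alone were −0.35, −0.50, −0.35 and −0.30, and the spleen values 0.36, 0.19, 0.18 and 0.22. Over the 12 alternatives these differences were called in 10, 9, 6 and 8 respectively, and none was called without replicate 1 or without the variance trend. The effect on *Prkcq* in the spleen was higher after *Ets1* than after *Grk2* editing, by 0.74 (95% interval 0.40 to 1.07, adjusted p = 0.00926, limma), and was called in 8 of 12 alternatives. No library of a group of 3 was tested for standing apart in a single gene, since such groups are too small for that test.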

How the results depend on the processing

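Of the 9 members 0 were called in each of the 5 comparisons, and this held under every alternative that could be run, for 583 member values with an adjusted p and a lowest value of 0.104 (*Lat* in the parenchyma). The 3 parenchyma controls lay outside the spleen range for 5 members in the main setting and for between 5 and 6 with a replicate left out, *Cd3g* being the sixth without replicate 1. With no replicate block 0 members were called in each comparison, and the pairing of libraries by number changed no call of a member. The labels do not state shared animals, and the correlation of deviations between libraries of the same replicate number ran from −0.003 to 0.175, not above 0.1 for every number.

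For the other pathway genes the counts of calls, added after seeing the data, moved as follows. In the parenchyma 8 were called after *Ets1* editing, 0 without the variance trend, 3 with DESeq2 and between 3 and 6 with a replicate left out. In the spleen 0 were called after *Ets1* editing, 1 with quantile normalization (*Skap1*) and between 0 and 1 with a replicate left out. After *Grk2* editing 1 was called, 0 with no replicate block, with no filter, without the variance trend or with DESeq2, 2 with quantile normalization and 0 with any replicate left out. Between tissues 4 differed, 2 with no replicate block, 0 without the variance trend and between 0 and 3 with a replicate left out. Between edits 1 differed, 0 with no replicate block, 2 with quantile normalization, 0 without the variance trend and between 0 and 1 with a replicate left out. The causes were not tested. Over all genes tested the counts of calls also moved by more than 1.5 times. In the parenchyma 366 became 212 with no filter, 200 with no replicate block, 90 with DESeq2, 3 without the variance trend and 165 to 278 with a replicate left out. In the spleen 155 became 242 with no filter, 238 with edgeR, 71 with no replicate block, 50 with DESeq2, 0 without the variance trend and 3 to 241 with a replicate left out. After *Grk2* editing 109 became 60 with a minimum of 50, 19 with no replicate block, 9 with DESeq2, 0 without the variance trend and 9 to 48 with a replicate left out. The 137 genes that differed between tissues became 47 with no replicate block, 2 without the variance trend and 27 to 98 with a replicate left out, and the 126 that differed between edits became 43, 0 and 24 to 49. *Cd4* could not be fitted with a minimum of 50, had no adjusted p from DESeq2 and gave no value at equal depth in the spleen after *Ets1* editing or in either difference. DESeq2 gave 6, 9 and 4 of the other pathway genes no adjusted p in the parenchyma, in the spleen and after *Grk2* editing. *Cd4*, with 6 to 50 reads per library, is limited by depth, while the other members had between 193 and 1554 reads.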

Other observations

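The other genes of the pathway also differed between the control cells of the tissues. Of 36 compared, 10 were higher and 7 lower in the 3 parenchyma controls than in all 6 spleen controls, and 19 overlapped, where 24% of all genes did not overlap. The lists were chosen with earlier results of these data known, and the levels, which come from separately scaled tables, were not tested. *Icos*, a costimulatory receptor, had between 3475 and 4113 RPM in the parenchyma and between 546 and 1036 RPM in the spleen, 4.74-fold higher. *Cblb*, a ubiquitin ligase that dampens TCR signals, had between 363 and 415 RPM against 93.3 to 122 RPM, 3.46-fold higher, and *Ctla4*, an inhibitory receptor, had 133 to 154 RPM against 29.0 to 118 RPM. *Fyn*, the other SRC family kinase of T cells, had 392 to 493 RPM against 283 to 315 RPM and *Ptpn22*, a phosphatase that acts on LCK, had 435 to 482 RPM against 154 to 334 RPM. Lower in the parenchyma were *Cd5*, an inhibitory receptor whose level follows TCR signal strength (53.5 to 62.7 against 94.6 to 234 RPM), *Csk*, the kinase that shuts LCK off (82.1 to 96.4 against 98.2 to 253 RPM), *Sit1* (310 to 352 against 561 to 927 RPM) and *Nck2*, an adaptor (8.69 to 18.1 against 28.2 to 48.8 RPM). For *Csk* this depended on the scale. Its normalized counts were 124, 140 and 116 in the parenchyma controls and 127, 129 and 131 in the spleen controls to *Grk2*-KO, ranges that overlapped.

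The tested genes next to the CD3 genes on chromosome 8 of Rnor_6.0 were *Ube4a* and *Atp5mg* before *Cd3g* and *Jaml* and *Cep164* after *Cd3e*. *Jaml*, an adhesion molecule that starts 69837 bases after *Cd3e*, rose after *Ets1* editing in the parenchyma (log2 fold change 0.83, adjusted p = 6.05e-05, limma) and in the spleen (0.94, adjusted p = 0.0451, limma), and was not called after *Grk2* editing (0.21). *Atp5mg*, a subunit of ATP synthase, rose in the spleen after *Ets1* editing (0.63, adjusted p = 0.00847, limma) and had 0.19 in the parenchyma. *Ube4a* and *Cep164* were called in none of the 3 comparisons. Over all genes tested 5.23% were called after *Ets1* editing in the parenchyma, 2.22% after it in the spleen and 1.56% after *Grk2* editing. As given above, the counts behind these shares moved widely with the alternatives.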
